A study of Mus musculus with 11 samples.

Results

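Intergenic open-chromatin peaks at a middle distance from genes were examined in haematopoietic stem cells (HSCs), the bone marrow cells that renew themselves and give rise to all blood lineages. Accessibility had been read out with ATAC-seq, a method in which a cut-and-paste enzyme, Tn5, tags DNA that is not packed away. The peaks were the rows of the authors' deposited tables annotated as distal intergenic with a start site of the assigned gene at least 20 kb and under 100 kb away. They numbered 15285 of 94410 peaks, which is 16.2% of all peaks and 45.4% of the 33664 distal intergenic ones. The rule used position alone and no measured value.

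All cells came from mouse bone marrow of the genotype Gfplc3/Gfplc3, with steady state isolation as the treatment in every group. The allele encodes the autophagosome protein LC3 fused to GFP, and GFP signal is lost as autophagy degrades the fusion protein. The groups were 5 libraries of young HSCs, which were left unfractionated, 3 libraries of old AThi HSCs, labelled as the autophagy-engaging cells, and 3 libraries of old ATlo HSCs, the other fraction of the same 3 old pairs. Every group carried the reporter, so no library came from cells without it. Age in numbers, sex, the isolation day of each library (there were 2 days) and the number of animals per library are not known from the labels. Age, fractionation and these factors cannot be told apart in a comparison with the young libraries. All p-values therefore rest on the spread among libraries, which may in part be technical, and the same 5 young libraries serve both comparisons with young cells.

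The files held no value per library. Every log2 fold change, standard error (SE), p and adjusted p below is from the authors' deposited tables, and an interval is the 95% interval, 1.96 SE on each side. A peak was called when the authors' adjusted p was under 0.05. A level is the mean normalised count of a peak over all libraries, and the level of a group is the value implied by that mean and the deposited changes, so whether single libraries overlapped between groups was not analysed here. In bulk cells, fewer cells with an open site and less opening per cell cannot be told apart. The labelled cell type was compared with the strongest promoter peak of marker genes. Of 32 HSC identity genes, 31 had a promoter peak, at a median level of 180, and Ly6a had none. Of 20 genes of mature blood cells, 7 had one, at a median of 27.3, and Cd3e, Cd79a, Ms4a1 and Ly6g were among the 13 without. Genes of related or other cells had promoter peaks too, 17 of 22 megakaryocyte and erythroid genes at a median level of 229 and 22 of 22 stromal and endothelial genes at a median of 57.3. So did 18 of 23 myeloid genes, at a median level of 85.4, and 22 of 25 lymphoid genes, at a median of 61.8. Promoter peaks thus set these libraries apart from the mature blood list and not from every other cell type.

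Open intergenic DNA holds enhancers, which bind transcription factors and act on promoters through contacts over long distances, and insulator sites that shape those contacts. Blood genes such as Gata2, Runx1, Lmo2 and Cebpa are known for enhancers of this kind. The gene with the nearest start is a label for such a site and need not be its target, and a peak is no measurement of that gene's expression.

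The sequences of the peaks themselves were not used here. Shown instead, because strongly changed peaks lie near their genes, are the mature arms of microRNAs from RefSeq on GRCm38.p6, with the seed (bases 2 to 8) in capitals. The miR-125b arms belong to Mir125b-2 on chromosome 16, the gene nearest to the microRNA-linked peak with the smallest p. The miR-7094 arms belong to Mir7094-1 and Mir7094-2 on chromosome 12, which share the 3p arm and lie in the immunoglobulin heavy-chain region.
mmu-miR-125b-5p: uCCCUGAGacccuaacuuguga
mmu-miR-125b-2-3p: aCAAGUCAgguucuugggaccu
mmu-miR-7094-3p: uACUCUGCuguucucuccaca
mmu-miR-7094-1-5p: uCUGAAGAggauacagggucuga
mmu-miR-7094b-2-5p: uCUGGAGAggauacagggucuga

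Promoter windows are shown for 3 genes whose promoter and intergenic peak were both called by the authors' adjusted p, 2 higher and 1 lower. Each runs from 250 bases before the RefSeq start up to that start. Ehd3 encodes an endosomal trafficking protein whose transcript marks aged HSCs, Igf1 encodes insulin-like growth factor 1, and Chaserr is a long noncoding RNA next to the chromatin remodeller gene Chd2. Both strands were searched for the letters TTCNNNGAA of STAT factors, which 7.02% of 32851 promoter windows of this length held. The letters TGANTCA of AP-1 factors were found in 6.75% of those windows. The letters AGATAA of GATA factors were found in 9.99%. Matches are in capitals. The Igf1 window held 1 AP-1 match, which starts 37 bases before the start site, and the other windows held none of the 3 motifs.
Ehd3, GRCm38.p6 chr17:73804591-73804840, + strand: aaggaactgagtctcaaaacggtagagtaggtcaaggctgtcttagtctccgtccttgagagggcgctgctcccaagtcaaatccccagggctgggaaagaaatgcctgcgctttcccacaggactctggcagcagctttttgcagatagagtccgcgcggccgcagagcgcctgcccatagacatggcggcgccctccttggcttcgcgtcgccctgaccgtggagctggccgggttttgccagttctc
Igf1, GRCm38.p6 chr10:87860861-87861110, + strand: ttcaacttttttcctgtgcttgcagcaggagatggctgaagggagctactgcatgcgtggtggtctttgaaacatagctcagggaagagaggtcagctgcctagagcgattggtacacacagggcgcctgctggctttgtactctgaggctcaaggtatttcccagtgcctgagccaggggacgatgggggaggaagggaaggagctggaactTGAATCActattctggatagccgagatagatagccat
Chaserr, GRCm38.p6 chr7:73558396-73558645, - strand: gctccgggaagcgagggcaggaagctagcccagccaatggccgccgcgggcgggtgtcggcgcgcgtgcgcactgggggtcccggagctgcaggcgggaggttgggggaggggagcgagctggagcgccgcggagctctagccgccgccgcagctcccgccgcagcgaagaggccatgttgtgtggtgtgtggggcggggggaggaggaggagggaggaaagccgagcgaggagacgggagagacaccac

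The intergenic peaks were modest in size and signal. Their median width was 513 bp (201 to 2519 bp) and their median level 20.9, with quartiles at 11.8 and 41.7, against a median level of 92.3 at promoter peaks and 27.5 over all peaks. Together they held 9.47% of the summed level of all peaks. The median distance to the assigned start was 41.4 kb (20003 to 99999 bp), and 57.9% lay upstream of it. They were assigned to 5890 genes, of which 2376 had a single such peak. The assigned gene was protein coding for 11404 peaks, a long noncoding RNA for 3172 and a microRNA for 434.

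A few sites were as open as strong promoters. The highest level in the authors' deposited tables, 965, was at chr11:108902392-108903014 (mm39), 91.2 kb downstream of the start of Axin2, a Wnt pathway feedback inhibitor. Its log2 changes of 0.42 (SE 0.33) in AThi and 0.27 (SE 0.33) in ATlo HSCs against young were not called. The next named sites lay 63.9 kb from Zfp958 (level 774), 25.8 kb from Egr1 (590), an immediate early gene that restrains HSC division and migration, and 59.0 kb from Irf2bpl (583). The Zfp958 site had implied levels of 913 in young, 670 in AThi and 646 in ATlo HSCs. Its change was called lower for ATlo HSCs (log2 -0.50, SE 0.16, adjusted p = 0.0269) and missed the threshold for AThi HSCs (-0.45, SE 0.16, adjusted p = 0.0556). With the strongest promoters set to no change, as explained with the scaling, the ATlo value was -0.20 and not called. S1pr1, the sphingosine-1-phosphate receptor gene that guides cell traffic, and Ywhaz, a 14-3-3 adaptor gene, each had 20 such peaks, and Irf2bp2 and Runx3 each had 17.

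Against young HSCs, far more intergenic peaks were more open in old cells than less open. For old AThi HSCs, 1148 of the 14846 peaks with an adjusted p were called higher, which is 7.73%, beside 7.57% of all peaks in the authors' deposited table. Another 270 were called lower, which is 1.82%, beside 2.74% of all peaks. For old ATlo HSCs, 1007 were called higher, 6.78% beside 6.88% of all peaks, and 173 lower, 1.17% beside 2.54%. The higher shares were thus near those of all peaks and the lower shares below them. Intron peaks, at a median level of 21.2, also had fewer lower calls than all peaks, 2.17% in AThi and 1.31% in ATlo HSCs. The median log2 change over all 15285 peaks was -0.01 and 0.00, and over the called ones it was 1.27 higher and -1.05 lower for AThi HSCs and 1.26 and -0.83 for ATlo HSCs.

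The size of the split between directions depended on the scaling, and higher calls were the larger part in each scaling tried. Of the called peaks, 81.0% were higher in AThi and 85.3% in ATlo HSCs. The 2289 promoter peaks with a level of at least 327 had median log2 changes of -0.22 and -0.30. With these promoters set to no change, a choice called the promoter-centred scaling from here on, 1986 peaks were higher and 102 lower in AThi HSCs (95.1% higher), and 2451 higher and 31 lower in ATlo HSCs (98.8% higher). Over all peaks this scaling called 13.1% higher and 0.861% lower in AThi HSCs and 16.4% and 0.325% in ATlo HSCs.

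**Figure D1:**
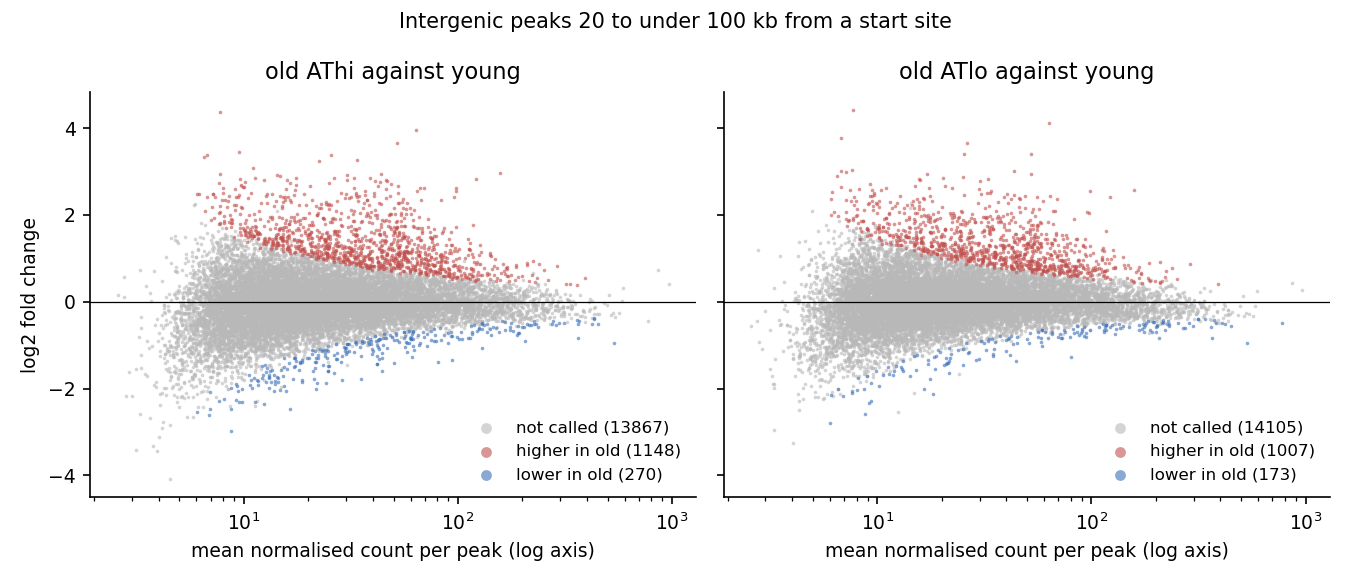
Each point is 1 of the 15285 intergenic peaks, with its mean normalised count on a log axis and its log2 fold change against young HSCs on the vertical axis, for old AThi (left) and old ATlo HSCs (right). Red points were called higher (1148 and 1007) and blue points lower (270 and 173), and the changes called span most of the range of levels.

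Between the old fractions no intergenic peak was called. In the authors' deposited comparison of AThi with ATlo HSCs, 0 of 15285 were called higher and 0 lower at an adjusted p under 0.05, beside 0% of all peaks in each direction. At an unadjusted p under 0.05 there were 280, which is 1.83%, beside 1.78% of all peaks. Both shares were below the fraction of 0.05 that evenly spread p-values would give, and the reason was not tested. The fractions came from the same old pairs, and no paired analysis was possible here. The lack of calls is therefore no measure of how alike the fractions were. The median SE was 0.42 on the log2 scale, so the 95% interval of a typical peak, not adjusted for the number of peaks, reached 0.83 to each side. A call after adjustment over 94410 peaks needed a larger difference than that at a typical peak. Differences above 0.83 could therefore also go uncalled.

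The share of peaks called higher was larger far from start sites than near them. Among distal intergenic peaks within 20 kb it was 5.34% for AThi and 5.28% for ATlo HSCs. It was 7.16% and 5.91% from 20 to 30 kb, 6.62% and 6.24% from 30 to 50 kb, 8.92% and 7.90% from 50 to 70 kb, and 9.40% and 7.92% from 70 to 100 kb. Beyond the range examined it was 12.2% and 11.7% from 100 to 500 kb and 18.4% and 18.2% beyond 500 kb. In AThi HSCs the step from 20 to 30 kb to 30 to 50 kb went down, and each other step went up. The share called lower ran the other way over 3 wider classes, at 2.74% and 1.95% within 20 kb, 1.82% and 1.17% in the range, and 1.20% and 0.67% from 100 to 500 kb. Promoter peaks had 7.12% and 5.69% higher and 4.44% and 5.98% lower. Intron peaks had 7.46% and 7.09% higher and 2.17% and 1.31% lower. These are counts of peaks of the same libraries, and no test over peaks was made.

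**Figure D2:**
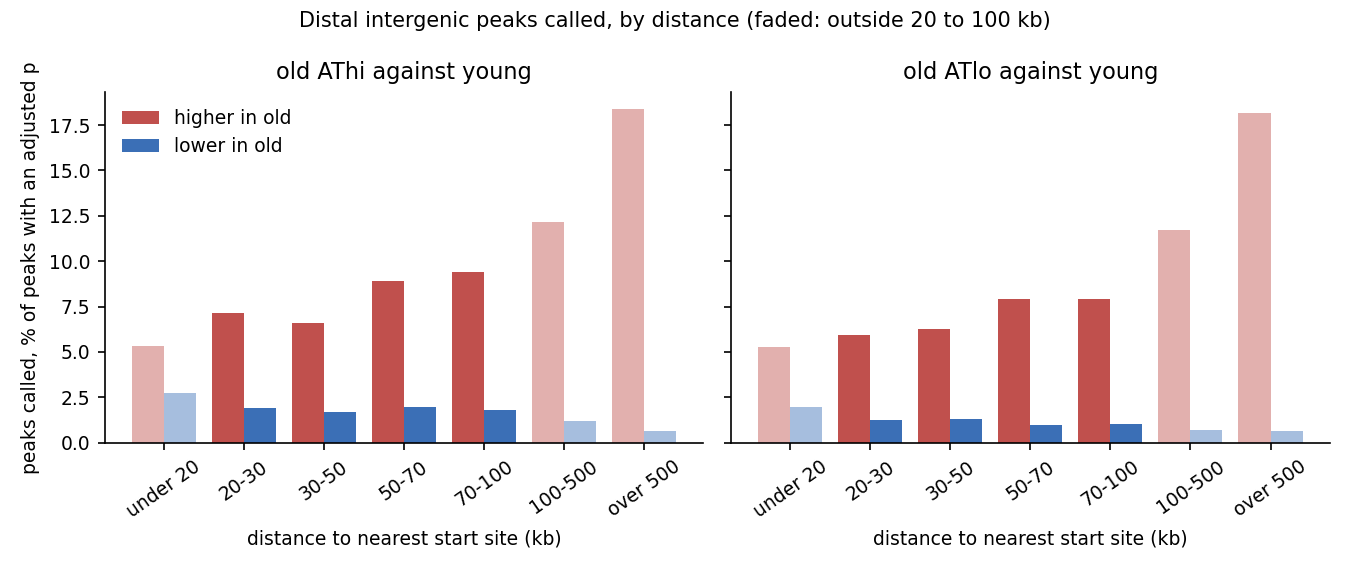
Bars give the percent of distal intergenic peaks called higher (red) or lower (blue) in old HSCs, by distance to the nearest start site in kb, with AThi left and ATlo right and classes outside 20 to 100 kb faded. Higher calls go from 5.34% within 20 kb to 18.4% beyond 500 kb for AThi HSCs, with 7.16% from 20 to 30 kb above 6.62% from 30 to 50 kb.

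The order of the 3 wider classes held within bins of level. At levels from 20 to 40, 5.07% of peaks within 20 kb, 8.75% of those from 20 to under 100 kb and 14.5% of those from 100 to 500 kb were called higher in AThi HSCs, and 5.63%, 7.50% and 15.2% in ATlo HSCs. The same order held in each of the 5 level bins in both comparisons. At the lower edge of the range, 26 of 502 peaks in the last kilobase outside it and 30 of 490 in the first kilobase inside it were higher in AThi HSCs. At the upper edge the counts were 8 of 65 inside and 6 of 68 outside.

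**Figure D3:**
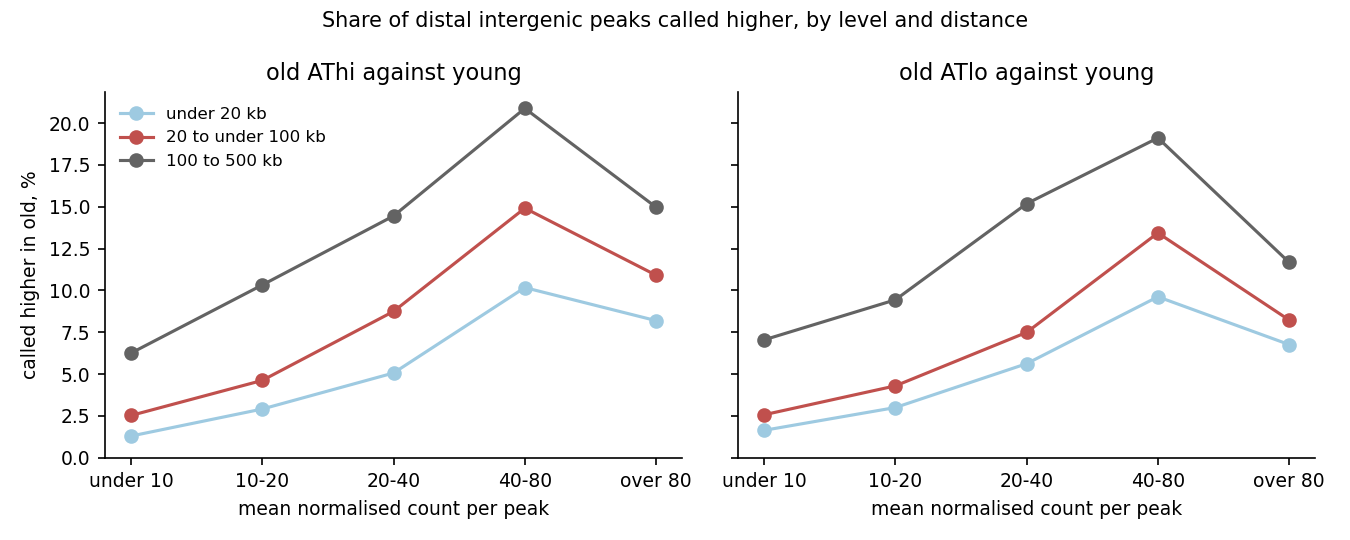
Lines give the percent of peaks called higher in old AThi (left) or ATlo HSCs (right) in 5 bins of mean normalised count, for distal intergenic peaks under 20 kb, 20 to under 100 kb and 100 to 500 kb from a start site. In each bin the middle class lies between the other two, for example 8.75% between 5.07% and 14.5% at levels from 20 to 40 in AThi HSCs.

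Called peaks were wider and stronger than the rest and differed in spacing. For AThi HSCs the median width was 593 bp for higher calls, 672 bp for lower calls and 502 bp for peaks not called, and the median levels were 37.4, 39.6 and 19.7. Peaks under 300 bp made up 5.92% of higher and 1.85% of lower calls and 12.1% of the rest. The median gap to the next peak was 6708 bp for higher calls, 4654 bp for lower calls and 5504 bp for the rest. For ATlo HSCs these gaps were 6477, 4619 and 5502 bp. Width and level also set the power of the test, and their part in these differences was not tested. Upstream and downstream peaks were called higher alike in AThi HSCs, at 7.74% and 7.72%, and at 6.59% and 7.05% in ATlo HSCs. Peaks assigned to long noncoding RNAs were called higher in 9.42% and 7.83% of cases and those assigned to protein-coding genes in 7.29% and 6.53%.

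The peak with the smallest p in both comparisons lay 27.1 kb upstream of Wars2, which encodes a mitochondrial tryptophanyl-tRNA synthetase. In the authors' deposited tables this peak, chr3:99020197-99021299 (mm39, 1103 bp), had implied levels of 26.3 in young, 161 in AThi and 154 in ATlo HSCs. The log2 change was 2.61 (SE 0.22, adjusted p = 5.81e-28) in AThi and 2.55 (SE 0.22, adjusted p = 5.67e-27) in ATlo HSCs. The Wars2 promoter peak, at a level of 253, was not called (-0.18 and -0.19). The old fractions stood 6.13-fold and 5.87-fold above the young level and within 0.06 (SE 0.22) of each other.

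A site 58.4 kb upstream of Kcna4, a voltage-gated potassium channel gene, had the largest changes among the named peaks. Its implied levels were 6.72 in young, 105 in AThi and 117 in ATlo HSCs at chr2:107061819-107062492. The log2 changes were 3.96 (SE 0.45, adjusted p = 9.41e-16) and 4.12 (SE 0.45, adjusted p = 7.57e-17). Here the promoter was called higher too, at 1.30 (SE 0.29) and 1.49 (SE 0.28).

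The peak 58.4 kb downstream of the start of Mir125b-2, whose miR-125b-5p arm is shown above and is known to expand HSCs when overexpressed, was at chr16:77501544-77502072. Implied levels were 7.23 in young, 69.7 in AThi and 42.5 in ATlo HSCs. The log2 changes were 3.27 (SE 0.35, adjusted p = 2.53e-17) and 2.56 (SE 0.36, adjusted p = 4.49e-10), and the difference between the fractions, 0.71 with an interval from 0.06 to 1.36, was not called (unadjusted p = 0.0319). The strongest promoter peak assigned to the gene was not called (0.09 and 0.10).

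Other strongly higher sites lay near genes of several kinds. The implied level went from 20.1 in young to 123 in AThi and 86.2 in ATlo HSCs near Uncx, a homeobox gene. It went from 31.2 to 167 and 130 near the sodium channel gene Scn8a, and from 19.4 to 93.3 and 66.3 near Ror1, a receptor for Wnt5a. Near Ppa2, which encodes the mitochondrial pyrophosphatase, it was 12.2, 77.5 and 93.8, and near Rgs18, a regulator of G-protein signalling of the megakaryocyte lineage, 17.8, 79.5 and 94.1. All 5 were called in both comparisons. At the promoters of Scn8a, Ror1, Ppa2 and Rgs18 no change was called, and Rgs18 had values below 0 there (-0.56 and -0.42).

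Lower peaks changed less. The smallest p among them was at chrX:158291244-158292569, 23.1 kb upstream of Bclaf3, with implied levels of 120 in young, 45.9 in AThi and 49.6 in ATlo HSCs. The log2 changes were -1.39 (SE 0.22, adjusted p = 2.97e-08) and -1.27 (SE 0.21, adjusted p = 1.15e-07). Bclaf3 is X-linked, and X-linked peaks as a group were shifted, as described with the sex chromosomes.

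Among autosomal peaks, the site 42.1 kb upstream of Cd44, the hyaluronan receptor gene of HSC homing, fell from an implied level of 172 in young to 82.5 in AThi and 104 in ATlo HSCs. Its log2 changes were -1.06 (SE 0.20, adjusted p = 6.15e-06) and -0.74 (SE 0.19, adjusted p = 0.0028). In the promoter-centred scaling, the second value was -0.43 and no longer called (adjusted p = 0.103). The Cd44 promoter was not called. The sites near Dhrs2, Ptafr (the receptor for platelet-activating factor), Arhgap15 (a Rac inhibitor) and Nrp2 (a co-receptor for semaphorins) were called lower in both comparisons as well, with the Nrp2 call in ATlo HSCs lost under the same rescaling (-0.66, adjusted p = 0.0628). Near Arhgap15 the promoter peak was also called lower, at -1.01 (SE 0.24, adjusted p = 0.000556) and -0.62 (SE 0.22, adjusted p = 0.0469).

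Several lower sites were called in AThi HSCs and not in ATlo HSCs. Near Tnfsf8, which encodes the CD30 ligand, the implied levels were 65.5 in young, 24.6 in AThi and 51.3 in ATlo HSCs. The log2 change was -1.41 (SE 0.28, adjusted p = 1.51e-05) in AThi and -0.35 (SE 0.22, adjusted p = 0.368) in ATlo HSCs. Its difference between the old fractions, -1.06 with an interval from -1.65 to -0.46, had the smallest unadjusted p among the named peaks of that comparison (0.000485) and was not called. Sites near Ptger2 (the EP2 receptor for prostaglandin E2), Lrrc32, Rnf152 and Bach2 (a repressor of myeloid genes in B cell progenitors) had levels of 18.5, 16.8, 61.0 and 21.4 in ATlo HSCs, between their AThi and young levels. None of these differences between old fractions was called. The site 24.4 kb upstream of Map3k20 was called lower in ATlo HSCs alone (log2 -2.01, SE 0.55, adjusted p = 0.0057, against -0.95, SE 0.50, in AThi HSCs), and that difference was not called either.

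**Figure D4:**
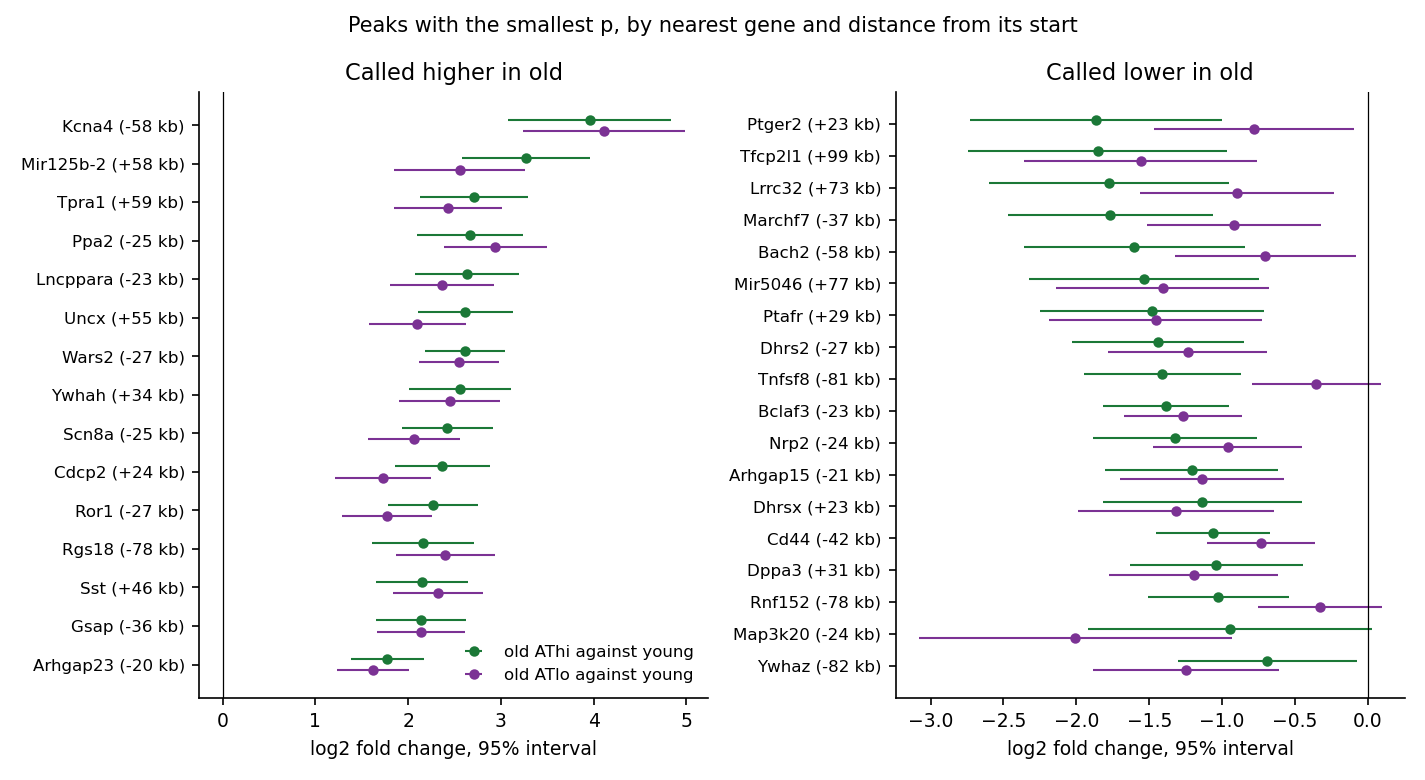
Points give the log2 fold change against young HSCs, with 95% intervals that are not adjusted for the number of peaks, for old AThi (green) and old ATlo HSCs (purple) at the peaks with the smallest p in either comparison, named by nearest gene and distance. Higher peaks (left) lie from 1.62 (Arhgap23) to 4.12 (Kcna4), and lower peaks (right) lie nearer to 0, with the intervals of Tnfsf8 and Rnf152 in ATlo HSCs and of Map3k20 in AThi HSCs reaching it.

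Where the old fractions differed most, neither direction passed. The smallest unadjusted p with AThi above ATlo were near Mga, Coq2, Dnm3, Mir122 and Max, and with AThi below ATlo near Tnfsf8, Dtl, Snord17, Cdk20 and Ano1. Near Coq2, a gene of coenzyme Q synthesis, the implied levels were 15.8 in young, 41.5 in AThi and 19.9 in ATlo HSCs (difference 1.06, interval 0.33 to 1.79, unadjusted p = 0.00456). Near Dtl, a replication licensing gene, they were 25.3, 9.69 and 26.6 (difference -1.45, interval -2.38 to -0.53, unadjusted p = 0.00203). Every adjusted p in this comparison was above 0.05.

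Some loci held several higher calls. Joining intergenic peaks under 25 kb apart gave 6395 loci, of which 117 held at least 2 higher calls in AThi and 92 in ATlo HSCs. Those described here were picked for their calls. Over all peaks 7.57% were higher in AThi and 6.88% in ATlo HSCs. Whether calls gathered more than their number alone would give was not tested. All 7 intergenic peaks assigned to F13a1, the clotting factor XIII subunit gene of megakaryocytes and macrophages, lay from 58.6 to 98.3 kb upstream of it within 40.2 kb of chromosome 13. Of these, 4 were called higher in AThi and 5 in ATlo HSCs, and the other peaks had positive changes in both. The peak at chr13:37294324-37294786 had log2 changes of 1.53 (SE 0.30, adjusted p = 1.84e-05) and 1.71 (SE 0.29, adjusted p = 3.84e-07). The F13a1 promoter peak was weak, with a level of 14.6, and was not called.

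Downstream of Sst, the somatostatin gene, lay 4 intergenic peaks, of which 3 were called higher in AThi HSCs and all 4 in ATlo HSCs. The one 45.5 kb from the Sst start, chr16:23663180-23664068, had implied levels of 19.6 in young, 87.0 in AThi and 98.3 in ATlo HSCs, with log2 changes of 2.15 (SE 0.25, adjusted p = 1.49e-14) and 2.33 (SE 0.25, adjusted p = 1.41e-17). The start of Rtp2 was 85.5 kb away and that of Bcl6, a transcriptional repressor gene, 136 kb. The neighbour 47.7 kb from Sst changed by 2.50 (SE 0.30) and 2.47 (SE 0.30).

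The stretch near Gm14321 and Ptpn1, the gene of a tyrosine phosphatase that dampens JAK2 signalling, held 17 peaks over 91.1 kb, with 5 higher in AThi and 3 in ATlo HSCs. The peak 37.6 kb from the Gm14321 start changed by 1.55 (SE 0.29, adjusted p = 6.5e-06) and 1.32 (SE 0.29, adjusted p = 0.000274), while the strongest one, 61.7 kb away with a level of 303, stood at 0.02 and 0.01. At Dlx2 and its neighbour Platr26, 2 and 4 of 16 peaks were higher.

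Other loci, also picked for their calls, held several lower ones. Over all peaks 2.74% were lower in AThi and 2.54% in ATlo HSCs. Upstream of Chaserr, 3 of 5 peaks were called lower in AThi and 2 in ATlo HSCs, and 2 of these were strong sites. The peak 59.4 kb upstream, with a level of 449, changed by -0.50 (SE 0.15, adjusted p = 0.0137) and -0.55 (SE 0.15, adjusted p = 0.00527), and the one 36.2 kb upstream, with a level of 362, by -0.52 (SE 0.15, adjusted p = 0.00843) and -0.58 (SE 0.15, adjusted p = 0.00233). After promoter-centred scaling, none of these Chaserr peaks was called (-0.30 and -0.28 at 36.2 kb, -0.28 and -0.25 at 59.4 kb). The Chaserr promoter, whose window is shown above, had a level of 595 and changed as deposited by -0.42 (adjusted p = 0.0252) and -0.58 (adjusted p = 0.000724). It was among the strong promoters used for the rescaling, whose medians were -0.22 and -0.30, and its rescaled value is not given here. Upstream of Xcr1, a chemokine receptor gene of dendritic cells, 2 of 5 peaks were lower in each comparison, the larger change being -1.15 (SE 0.31, adjusted p = 0.00449) in AThi HSCs. Downstream of Runx3, a lineage transcription factor gene, 2 of 17 peaks were lower in AThi HSCs (-1.39, SE 0.44 and -1.87, SE 0.62) and 0 in ATlo HSCs. Under the same rescaling both Runx3 calls were lost (adjusted p = 0.056 and 0.0542), and of the Xcr1 calls only the one 37.0 kb upstream in AThi HSCs remained (-0.93, adjusted p = 0.0243).

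**Figure D5:**
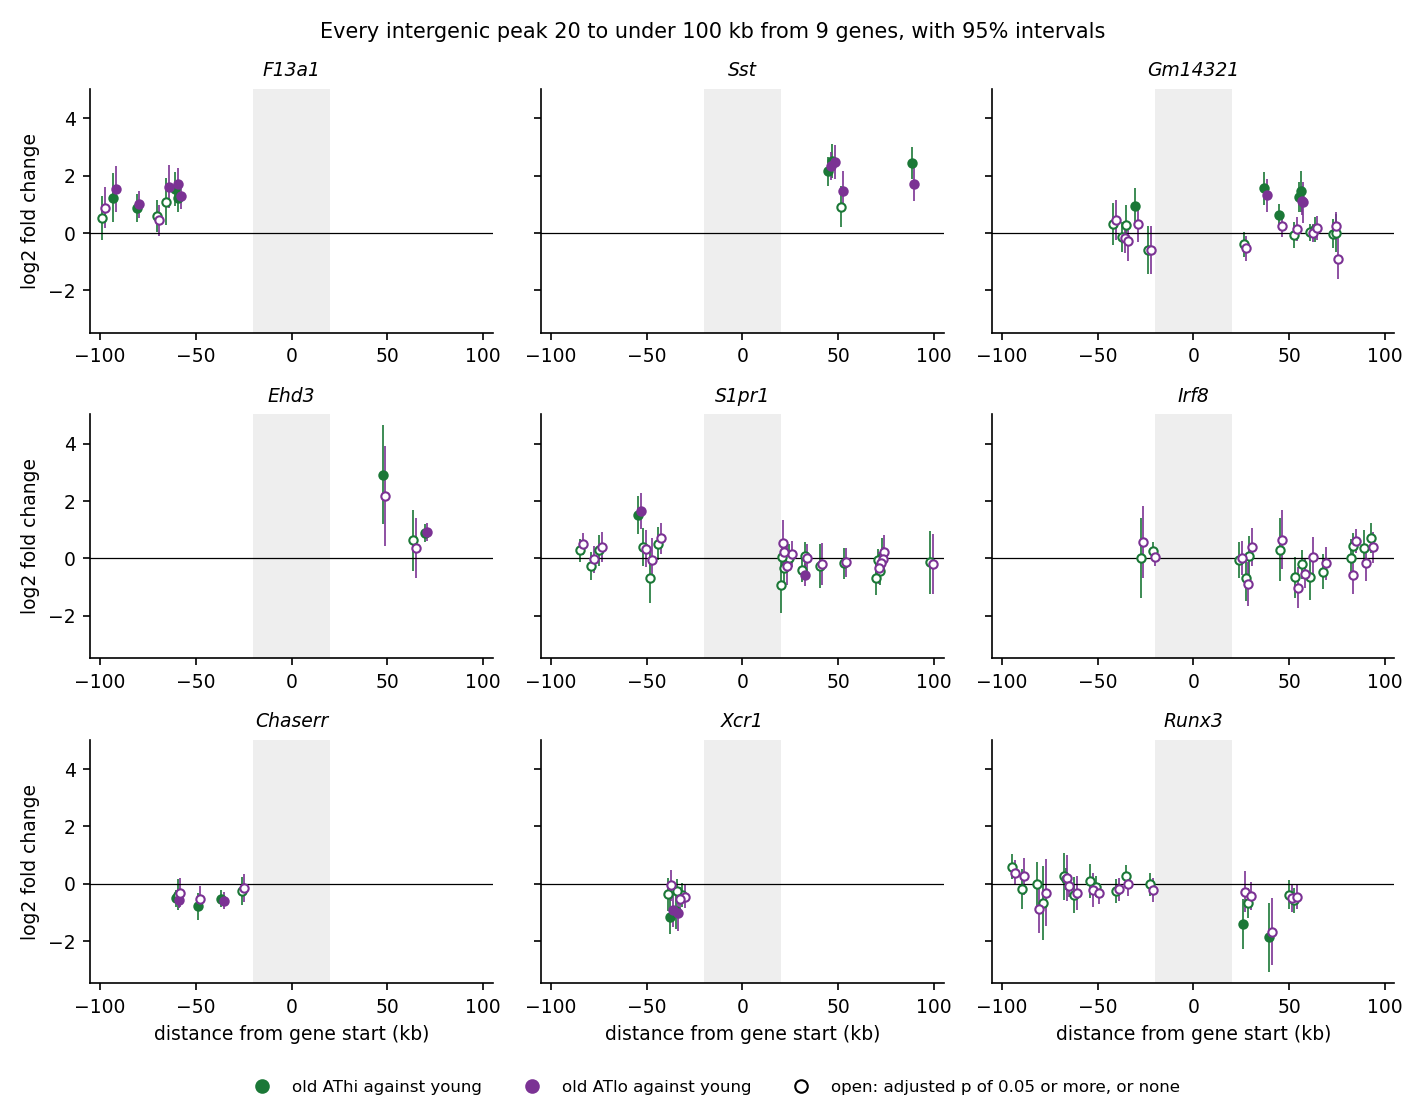
Each panel shows every intergenic peak assigned to 1 gene by its distance from the gene start in kb (the grey band is under 20 kb), with the log2 fold change and 95% interval for old AThi (green) and old ATlo HSCs (purple), filled where called. The points of the 7 F13a1 and 4 Sst peaks all lie above 0, those of the 5 Chaserr and 5 Xcr1 peaks all lie below 0, and the 20 S1pr1 and 14 Irf8 peaks scatter around it.

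For most called peaks the promoter of the same gene was not called. A promoter peak existed for the genes of 11464 intergenic peaks, and it was higher for 8.89% and lower for 5.30% of them in AThi HSCs. Where the intergenic peak was higher (829 with a promoter), the promoter was higher for 12.7% and lower for 4.22%. Where it was lower (216), the promoter was higher for 6.48% and lower for 7.87%. In ATlo HSCs the background was 6.32% and 8.74%, with 11.8% and 6.39% beside 720 higher peaks and 3.52% and 11.3% beside 142 lower ones. Across the 11464 peaks the log2 changes of peak and promoter had Pearson's r of 0.115 for AThi and 0.129 for ATlo HSCs (Spearman's rho 0.107 and 0.110). Peak and promoter values come from the same libraries, and several peaks share a promoter.

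Igf1, Nog, Sfrp1 and Serpine2 were among the genes whose peak and promoter were both called higher in each comparison. The peak 97.4 kb upstream of Igf1 changed by 1.96 (SE 0.32, adjusted p = 9.27e-08) in AThi and 1.83 (SE 0.32, adjusted p = 8.06e-07) in ATlo HSCs, and its promoter by 1.13 (SE 0.20) and 0.73 (SE 0.20). Near Nog, a BMP inhibitor, the peak changed by 2.23 and 1.94 and the promoter by 1.17 and 0.88. Near Sfrp1, a Wnt inhibitor that acts in the HSC niche, the values were 1.22 and 1.32 for the peak and 0.75 and 0.58 for the promoter. Near Serpine2, a protease inhibitor gene, they were 1.99 and 1.35, and 0.76 and 0.54. These genes were picked as examples after their values were seen.

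The peaks near Mir7094-1 and Mir7094-2, in the immunoglobulin heavy-chain region, were of the same kind. The one 79.8 kb from Mir7094-1 changed by 2.43 (SE 0.30, adjusted p = 1.48e-13) and 2.03 (SE 0.30, adjusted p = 3.07e-09), with 1.73 in both comparisons at the promoter. The one 50.1 kb from Mir7094-2 changed by 1.13 (SE 0.27) and 1.30 (SE 0.26), with 2.07 and 2.36 at the promoter. Whether the microRNAs or the heavy-chain genes around them use these sites was not tested.

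The 12 gene lists held from 6 to 68 intergenic peaks each, so their counts of calls are small. Beside them stand the shares over all peaks, 7.57% higher and 2.74% lower in AThi and 6.88% and 2.54% in ATlo HSCs. Under the promoter-centred scaling the shares over all peaks were 13.1% and 0.861% in AThi and 16.4% and 0.325% in ATlo HSCs. Of 56 peaks near 18 known marker genes of HSC ageing, 7 were higher and 2 lower in AThi HSCs and 5 higher and 3 lower in ATlo HSCs, which is 12.7% and 9.09% higher of the 55 with an adjusted p, with median log2 changes of 0.12 and 0.07 beside -0.04 and -0.03 over all peaks, the values to which the medians of the other lists compare as well. On the promoter-centred scale the counts were 11 higher and 0 lower in both. Near Ehd3, the strong site at chr17:74182089-74183450, 70.3 kb from the start, had implied levels of 142 in young, 262 in AThi and 268 in ATlo HSCs. Its log2 changes were 0.88 (SE 0.16, adjusted p = 2.13e-06) and 0.92 (SE 0.16, adjusted p = 6.54e-07), close in size to those of the Ehd3 promoter shown above (0.85, SE 0.16, and 0.69, SE 0.16). The sites near Dhrs3, a retinal reductase gene, and Itgb3, the platelet integrin gene, changed by 1.94 and 1.86 in AThi and 1.72 and 1.58 in ATlo HSCs, with no promoter call. Near Klrb1c, a killer cell lectin receptor gene listed for rising with age, 2 strong sites were lower instead, at -0.50 (SE 0.15, adjusted p = 0.0133) and -0.57 (SE 0.15, adjusted p = 0.00318) for the one of level 297. Under the promoter-centred scaling, neither site was called (-0.28 and -0.27 for the stronger one).

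The HSC identity genes had 1 site that was called higher in both comparisons. Of 41 peaks near 15 identity genes, 1 was higher and 2 lower in AThi HSCs and 2 higher and 0 lower in ATlo HSCs, with medians of 0.14 and 0.13. When centred on the strongest promoters, there were 3 higher and 0 lower, and 4 higher and 0 lower. The higher one in both lay 23.0 kb from the start of Cdkn1c, which encodes the p57 cell cycle inhibitor of HSC quiescence. At chr7:142991244-142991824 its implied levels were 24.5 in young, 82.7 in AThi and 82.9 in ATlo HSCs, with log2 changes of 1.75 (SE 0.29, adjusted p = 1.33e-07) and 1.76 (SE 0.29, adjusted p = 1.21e-07). The Cdkn1c promoter was not called (-0.27 and -0.36).

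Of 49 peaks near 13 of the genes listed for known enhancers, 0 were higher and 2 lower in AThi HSCs, near Sox4 (-1.77, SE 0.55, adjusted p = 0.0185) and Fli1 (-0.78, SE 0.26, adjusted p = 0.0331), and 1 was higher and 0 lower in ATlo HSCs. The median was 0.03 in both comparisons. The higher one lay 27.4 kb upstream of Gata2, a transcription factor gene that HSCs require. It changed by 0.74 (SE 0.25, adjusted p = 0.0351) in ATlo and 0.30 (SE 0.27, adjusted p = 0.544) in AThi HSCs, while the Gata2 promoter was called higher in both (0.90 and 0.56). The 3 strong sites from 22.9 to 26.6 kb upstream of Lmo2, levels 118 to 146, had changes from -0.19 to 0.34 and were not called. None of the 14 peaks around Irf8, the monocyte and dendritic cell regulator, was called. The counts for this list turned with the scaling. In the promoter-centred scaling, 4 peaks were higher and 1 lower in AThi HSCs and 3 higher and 0 lower in ATlo HSCs. The higher ones were 8.33% and 6.25% of 48, below the 13.1% and 16.4% of all peaks in this scaling. The Fli1 call was then lost (-0.56, adjusted p = 0.15). The Lmo2 site 25.2 kb upstream was called higher in AThi HSCs (0.55, adjusted p = 0.0184). Of the Irf8 peaks, 3 were called higher in AThi HSCs (0.65, 0.93 and 0.47), and the one 84.1 kb away also in ATlo HSCs (0.92). A Runx1 peak 42.3 kb upstream was called higher in ATlo HSCs (0.73, adjusted p = 0.0106).

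Near lineage genes, single sites were called. Of 31 peaks near myeloid genes, 0 were called in AThi HSCs and 1 higher in ATlo HSCs, near the GM-CSF receptor gene Csf2ra (0.92, SE 0.24, adjusted p = 0.00285). As deposited, the Csf2ra promoter was called lower, at -0.47 (adjusted p = 0.0258) in AThi and -0.61 (adjusted p = 0.00154) in ATlo HSCs. At a level of 556 it was among the strong promoters used for the rescaling, whose medians were -0.22 and -0.30. Its rescaled value is not given here. The rescaled Csf2ra site was called higher in both comparisons (0.88 and 1.22). Of 32 near lymphoid genes, 1 was higher in both, 25.5 kb from Gata3, the T cell and innate lymphoid regulator, at 1.35 (SE 0.29, adjusted p = 8.95e-05) and 1.42 (SE 0.28, adjusted p = 2.23e-05). Of 13 near megakaryocyte and erythroid genes, 1 was higher and 1 lower in AThi HSCs and 1 higher and 0 lower in ATlo HSCs. The medians were -0.08 and -0.15 for the myeloid, -0.16 and -0.05 for the lymphoid and -0.29 and -0.20 for the megakaryocyte and erythroid list. After promoter-centred scaling, 4 and 2 myeloid peaks were higher, the 4 including 3 near Irf8, while the lymphoid counts stayed at 1 higher and 0 lower. The Gata3 promoter was not called.

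Near the AP-1 and immediate early genes, which respond to stress and cell isolation, the direction of the calls depended on the scaling. Of 55 peaks, 1 was higher and 4 lower in AThi HSCs and 1 higher and 2 lower in ATlo HSCs, with medians of -0.08 and -0.05. The lower ones included the strong site 37.0 kb upstream of Klf2, a quiescence factor gene, with implied levels of 256 in young, 176 in AThi and 185 in ATlo HSCs (log2 -0.54, SE 0.16, adjusted p = 0.0091, and -0.47, SE 0.15, adjusted p = 0.0271). The site near Batf3 was called lower in AThi HSCs, while the Batf3 promoter was called higher there (0.74, adjusted p = 0.00389). Under the promoter-centred scaling, every lower call of this list was lost, including those near Klf2 (-0.33 and -0.17), Batf3 (-0.75, adjusted p = 0.0638, in AThi HSCs) and Fos (-0.85, adjusted p = 0.122, in ATlo HSCs). The counts became 5 higher and 0 lower in both comparisons, with the strong Egr1 site among the higher ones (0.53 and 0.56). These 5 were 9.43% of 53, below the 13.1% and 16.4% of all peaks called higher in this scaling. With all peaks set to no change, they were 2 higher and 2 lower in AThi HSCs and 1 higher and 2 lower in ATlo HSCs. As deposited, the higher calls were both near Jun, at 0.74 (SE 0.25, adjusted p = 0.0351) 30.0 kb upstream in AThi HSCs and 0.84 (SE 0.27, adjusted p = 0.0285) 25.8 kb downstream in ATlo HSCs. The upstream site missed the threshold in ATlo HSCs (0.64, adjusted p = 0.0789), as did the downstream one in AThi HSCs (0.77, adjusted p = 0.0585). Under the promoter-centred scaling, each Jun site was called higher in both comparisons.

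Of 19 peaks near autophagy genes, 1 was higher in AThi and 2 in ATlo HSCs and 0 were lower, with medians of 0.04 and -0.08. The shared one lay 23.7 kb from the start of Gabarapl2, a member of the LC3 family of autophagosome proteins. At chr8:112691011-112692126 its implied levels were 30.0 in young, 58.0 in AThi and 75.9 in ATlo HSCs. The log2 changes were 0.95 (SE 0.24, adjusted p = 0.00237) and 1.34 (SE 0.23, adjusted p = 7.16e-07), and the difference between the fractions, -0.39 with an interval from -0.89 to 0.12, was not called. The start of Adat1 was 26.8 kb from this site, and the Gabarapl2 promoter was not called. The second in ATlo HSCs lay 85.1 kb from Pik3c3, the autophagy lipid kinase gene (1.16, SE 0.38, adjusted p = 0.027). Of 68 peaks near FoxO and lysosomal regulators, 1 was higher and 1 lower in AThi HSCs and 1 higher and 2 lower in ATlo HSCs, with medians of 0.01 and -0.10. In the promoter-centred scaling, these became 6 higher and 0 lower, and 8 higher and 0 lower. The higher ones were 9.09% and 12.1% of 66, below the 13.1% and 16.4% of all peaks in this scaling.

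Of 41 peaks near cytokine signalling genes, 2 were higher and 1 lower in each comparison, with medians of -0.12 and -0.03. After promoter-centred scaling, 5 and 6 were higher and 0 lower. The peak 34.8 kb from the start of Socs3, the feedback inhibitor of gp130 and STAT3 signalling, changed by 1.65 (SE 0.40, adjusted p = 0.000875) and 1.73 (SE 0.38, adjusted p = 0.000313), from an implied level of 8.15 in young to 25.7 and 27.0. Its neighbour 33.5 kb away was called in ATlo HSCs (1.28, SE 0.36, adjusted p = 0.00779) and not in AThi HSCs (0.81, SE 0.39, adjusted p = 0.183). The Socs3 promoter was higher in AThi HSCs (0.49, adjusted p = 0.0139) and not called in ATlo HSCs (0.19). A strong site near Il6st, the gp130 gene, was lower at -0.55 (adjusted p = 0.0471) and -0.64 (adjusted p = 0.0138), calls that were lost with the strongest promoters set to no change (-0.33 and -0.34). One near Jak1, level 335, was higher in AThi HSCs at 0.41 (SE 0.13, adjusted p = 0.0267) and not called in ATlo HSCs at 0.32 (SE 0.13, adjusted p = 0.111). Under the promoter-centred scaling the Jak1 site was called higher in both (0.63 and 0.62).

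Genes of other marrow cells also had called sites near them. Of 30 peaks near stromal and endothelial genes, 4 were higher in AThi HSCs, near Vcam1, Kdr, Cdh5 and Acan, 3 were higher in ATlo HSCs, and 0 were lower, with medians of 0.06 and 0.26. That is 13.3% and 10.0% higher, beside 7.57% and 6.88% of all peaks, a gap of few peaks in a list of this size. The Vcam1 site, near the adhesion molecule gene of the niche, changed by 1.11 (SE 0.21, adjusted p = 8.67e-06) in AThi and 0.58 (SE 0.22, adjusted p = 0.0651) in ATlo HSCs, where the rescaling made it a call (0.88). Sites near the endothelial genes Kdr and Cdh5 changed by 1.60 and 0.80 in AThi HSCs and by 1.47 and 0.58 in ATlo HSCs. At the promoters of all 22 genes of this list, with levels from 8.47 to 234, 1 was higher and 0 lower in each comparison, and the median log2 changes were 0.04 and -0.05. The higher promoter was that of Cxcl12, at 1.27 (SE 0.19, adjusted p = 1.89e-09) in AThi and 0.97 (SE 0.19, adjusted p = 1.63e-05) in ATlo HSCs. Of 6 peaks near mature blood cell genes, 0 were higher in either comparison and 1 was lower in AThi HSCs, with medians of -0.51 and -0.08, and 0 of the 7 promoters of that list were called. The part of other cell types in the intergenic changes was not tested.

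The X chromosome stood apart. The 437 X-linked intergenic peaks had median log2 changes of -0.23 in AThi and -0.17 in ATlo HSCs, beside -0.01 and 0.00 for the 14844 autosomal ones, and 2.95% and 1.72% of them were called higher, beside 7.87% and 6.93%. Called lower were 2.46% and 0.74% of the X-linked ones, beside 1.80% and 1.18% of the autosomal ones. The median level was 13.5 for the X-linked and 21.2 for the autosomal peaks, and its part in these shares was not tested. X-linked peaks of other kinds had medians of -0.21 and -0.14. A promoter peak of Xist, the RNA that silences the second X chromosome of female cells, was lower in old cells, at -5.38 (SE 1.56, adjusted p = 0.00927) and -4.65 (SE 1.45, adjusted p = 0.0206). The Xist peak within 1 kb of the start was lower in AThi HSCs (-6.79, SE 2.32, adjusted p = 0.0376) and not called in ATlo HSCs (-3.41, SE 2.08, adjusted p = 0.34). A peak in Xist exon 1 was called in neither (-1.19 and -0.96). Levels of these peaks were low, from 13.5 to 29.5. The 21 peaks on the Y chromosome had medians of 0.52 and 0.35, and 0 were called in either comparison. The X-linked site near Eif2s3x, a translation factor gene, was lower with its promoter (-0.91 and -0.84 for the peak, -1.02 and -0.91 for the promoter), and its ATlo call was lost with the strongest promoters set to no change (-0.54, adjusted p = 0.0619). Sex was not given in the labels, so age and a difference in sex makeup cannot be told apart here. Without the X and Y chromosomes, 1133 peaks were higher and 255 lower in AThi HSCs, and 995 and 169 in ATlo HSCs.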

How the data were processed

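Per the submitters' processing notes, reads were handled with cutadapt, Trim Galore and BWA, peaks with MACS2 and ChIPseeker, and counts with featureCounts and DESeq2. Tool versions, read shifting and the treatment of duplicates are not stated there. The authors deposited 3 tables of their own comparisons over the same peaks. The mean normalised count is a deposited signal, the log2 fold changes and SEs are the authors', the Wald statistic is the authors' score and was used only to check the tables, and the deposited p-values were used as they stand. The design assumed counts per library. Since 0 columns gave values of single libraries, nothing was refitted, and depth per library is unknown. An adjusted p was missing for 439 of the intergenic peaks (1831 of all), whose levels were at most 5.96, and these were not called.

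Coordinates were taken as mm39, 1-based. The notes name both GRCm38 and mm39. A RefSeq table of GRCm38.p6 gave symbols for 20791 of 20810 genes, of which only 273 ended at the same base. Implied group levels are the mean level divided among groups in proportion to the deposited fold changes, weighted by library number.

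Named genes followed a rule: for each comparison with young cells the 10 higher and 10 lower peaks with the smallest p, called and changed at least 2-fold, 1 per gene and no predicted genes. Between old fractions it took the 5 smallest p in each direction. It added up to 4 genes per list, the 25 strongest peaks near known enhancer genes and the 5 strongest peaks. Loci joined peaks under 25 kb apart, and further genes were named after their values were seen. The peaks and the 12 lists (309 entries) were chosen with earlier results of these data known. Alternatives were a stricter adjusted p, a 2-fold minimum, no or a higher level minimum, 2 other scalings, other distance limits, and, chosen after seeing the data, no sex chromosomes and wider peaks. Python (numpy 2.4.6, pandas 2.3.3, scipy 1.17.1) was used, and scripts were tested on simulated data.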

Additional observations from a re-analysis of the deposited data

How the results depend on the processing

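No named peak that was called changed sign under an alternative run, but the balance of higher and lower calls turned in some gene lists with the strongest promoters set to no change (AP-1 from 1 higher and 4 lower to 5 and 0 in AThi HSCs and from 1 and 2 to 5 and 0 in ATlo HSCs, known enhancer genes from 0 and 2 to 4 and 1 and HSC identity from 1 and 2 to 3 and 0 in AThi HSCs, FoxO and lysosomal regulators from 1 and 2 to 8 and 0 in ATlo HSCs). Over all peaks, that scaling called 13.1% higher and 0.861% lower in AThi HSCs and 16.4% and 0.325% in ATlo HSCs. The higher shares of the lists just named were below these. At an adjusted p under 0.01, 757 intergenic peaks were higher and 91 lower in AThi HSCs and 640 and 45 in ATlo HSCs. Requiring a 2-fold change as well left 142 and 66 lower. Setting the strongest promoters to no change gave 1986 higher and 102 lower, and 2451 and 31. From 20 to under 50 kb there were 632 higher and 165 lower in AThi and 561 higher in ATlo HSCs, and from 50 to under 100 kb 516 and 105, and 446 and 57, since each holds fewer peaks. The other counts stayed within 1.5 times under no level filter, a level of at least 10, all peaks set to no change, no sex chromosomes, peaks within 2 kb counted once, and widths of at least 400 bp, apart from lists with few calls. The comparison of AThi with ATlo HSCs had 0 calls in each alternative. With strong promoters set to no change, the Nrp2 and Marchf7 calls in ATlo HSCs were lost (adjusted p = 0.0628 and 0.163). No paired analysis was possible because the files hold no value per library. For the same reason, leaving out each library, other size factors, edgeR and DESeq2 fits were not run, and no result could be checked for dependence on 1 library.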
